A study of Mus musculus with 6 samples.

Results

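The collagen genes of the mouse genome were taken as every row of the count table whose symbol has the form Col, a type number, the letter a and a chain number. The rule found 43 of 23284 genes, which were grouped by class into 11 fibrillar collagens, 6 chains of type IV (the basement membrane class), 9 FACIT collagens (fibril-associated collagens with interrupted triple helices), 4 transmembrane collagens and 13 others. Emid2, an older name for the type XXVI chain, has another form of symbol, was not taken in and had 0 counts. RNA-seq was carried out on ribosome-depleted total RNA of cell lines that the study names by the state of Pax6, an eye transcription factor. MV+ (Pax6-ON) was grown out of lens epithelia of a wildtype C57BL6 mouse, and RAG (Pax6-OFF) is a renal adenocarcinoma line of BALB/c origin. Each line had 3 libraries from separate flasks, kept in DMEM with fetal calf serum and given no treatment. Each is a single immortalized line, so line, tissue of origin and strain cannot be told apart, and the tests measure the spread between flasks only.

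Collagens are triple helices of 3 chains, in which glycine comes back at a fixed step along each chain. Fibrillar chains pack into the fibrils of connective tissue, while type IV chains form the sheet of basement membranes, of which the lens capsule and the glomerular filter are well-known examples. FACIT collagens sit on fibrils, transmembrane collagens span the plasma membrane, and the remaining types form filaments, networks and anchoring fibrils. Chains are made in the endoplasmic reticulum, where proline and lysine hydroxylases and the chaperone HSP47 act on them, and they are trimmed and crosslinked outside the cell.

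The glycine repeat could be read in the exons to which the reads were assigned. Of 2013 collagen exons, 60.8% had a length divisible by 9, the bases of one glycine triplet of residues, against 13.5% of 213967 exons of all genes. Exons of exactly 54 bases made up 23.2% of collagen exons and 0.552% of all exons. In the fibrillar class they were 305 of 647 exons, and in type IV 12 of 296. GG, the start of a glycine codon, recurred at 9-base steps through 451 of the 468 collagen exons of 54 bases and through 0 of 709 such exons of all other genes. Exons of 4 chains are printed as examples from the fibrillar class, whose median log2 fold change between the lines was the largest of the classes. They run 5′ to 3′ in mm9 with the glycine codon at each 9-base step in capitals.
Col3a1 (chr1:45382205-45382258, plus strand): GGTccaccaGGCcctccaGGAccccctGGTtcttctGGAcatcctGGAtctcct
Col1a2 (chr6:4465481-4465534, plus strand): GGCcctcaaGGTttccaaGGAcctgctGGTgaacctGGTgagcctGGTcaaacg
Col5a1 (chr2:27820771-27820824, plus strand): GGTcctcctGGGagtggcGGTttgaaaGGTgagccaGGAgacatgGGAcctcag
Col5a3 (chr9:20605512-20605565, minus strand): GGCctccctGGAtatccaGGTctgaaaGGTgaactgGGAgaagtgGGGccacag

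Library totals ran from 17413045 to 22428230 counts in MV+ and from 28252165 to 43168532 in RAG, and Rn45s, the ribosomal RNA precursor, took 12.4 to 20.1% of them. Pax6 had 57.3 CPM (counts scaled to a common library total, here by TMM) in MV+ and 4 counts in all in RAG. Of the 6 lens markers tested of 14, 4 were higher in MV+ and 2 lower, with 79.3% of all genes tested called, 40.4% higher and 38.9% lower (the test is given further on). Foxe3, Lim2 and Crygs were at 0 in MV+, and the list summed to 189 to 230 CPM there and 143 to 158 in RAG. Six3 and Sox2, regulators in eye development, had 28.8 and 54.7 CPM in MV+, while the crystallin Cryaa had 23 counts there. The 2 lower ones were Maf, a regulator of lens fiber cells, with 25.7 CPM for MV+ against 74.0 for RAG, and the small heat shock protein Cryab, with 35.6 against 75.0. Kidney markers summed to 726 to 791 CPM in RAG and 53.7 to 57.1 in MV+, with Slc34a1 and Umod, markers of differentiated tubule, at 0 in both lines. Among 10 of these that were tested, 8 had lower levels in MV+. Most of the RAG sum came from the keratin gene Krt18, at 489.7 CPM. Lrp2 (megalin), an endocytic receptor of the proximal tubule, was higher in MV+ and made up most of the sum there, at 51.6 CPM against 7 counts in RAG. Its partner Cubn was also higher, at 3.83 against 1.76 CPM. Epcam was at 0 in RAG, with 9 counts in MV+. Of the 8 fibroblast and mesenchyme markers tested, 6 were higher in MV+, 1 was lower and 1 was not called. That is 87.5% called beside the 79.3% of all genes. Prrx1 had 116 CPM in MV+ and 0 counts in RAG, while Pdgfra, the lower one, had 1.13 CPM in MV+ against 5.03 in RAG. That list of 13 summed to 3684 to 3936 CPM in MV+ and 3377 to 3814 in RAG, and Lum and Tcf21 were at 0 in both lines. Most of either sum was Vim, the marker not called, at 3238 CPM in MV+ and 3568 in RAG. The part of this list in the collagen values was not tested. Markers of leukocytes, endothelium and erythroid cells summed to 1.95 to 2.52 CPM in MV+ and 92.3 to 107 in RAG, almost all of it Cd68. Pancreatic islet markers were examined because the study's line with high Pax6, not analysed here, is an insulinoma line, and they summed to 11.6, 7.56 and 1.75 CPM in the MV+ libraries (replicates 1, 2 and 3) against at most 0.0767 in RAG. MV+ replicate 3, the lowest in these markers, was also set alone against RAG, an alternative chosen after seeing the data. That fit holds no spread between MV+ libraries. No collagen tested both there and with all libraries changed the sign of its log2 fold change.

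MV+ expressed a wide set of collagens and RAG few. Of the 43 genes, 19 had a mean of at least 1 FPKM (counts scaled to exon length and library total, a level that can be compared between genes) in MV+ and 3 in RAG, namely Col18a1, Col8a1 and Col4a5, all of which also passed 1 FPKM in MV+. At 10 FPKM or more there were 12 in MV+ and 2 in RAG. Collagens took 0.326, 0.380 and 0.330% of all counts in the MV+ libraries (replicates 1, 2 and 3, here and below) and 0.0612, 0.0623 and 0.0667% in the RAG libraries, so every MV+ library lay above every RAG library. In bulk libraries, fewer cells that express a gene and less RNA per cell cannot be told apart. In all, 9 members had 0 counts in RAG and 5 had 0 in MV+, with 3 (Col24a1, Col13a1 and Col6a6) at 0 in both.

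**Figure D1:**
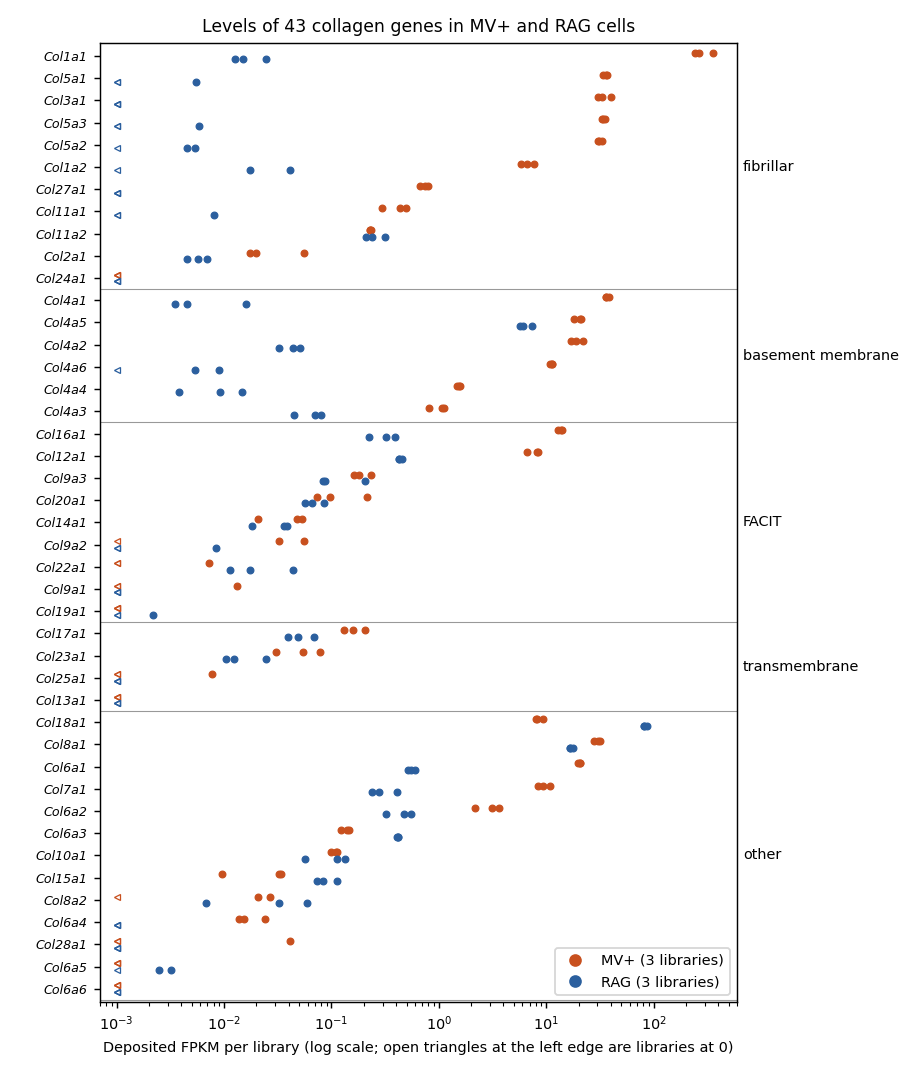
Deposited FPKM of each of the 43 collagen genes on a log axis, 1 point per library, with MV+ in orange and RAG in blue and libraries at 0 as open triangles at the left edge; classes are separated by lines. The fibrillar and type IV genes that pass 10 FPKM in MV+ lie below 0.1 FPKM in RAG apart from Col4a5, while Col18a1 is highest in RAG, at 81.1 to 87.0 FPKM.

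Of the 43 members, 25 had enough counts to be tested with edgeR's quasi-likelihood test across all genes, which called 79.3% of 12965 genes (Benjamini-Hochberg adjusted p under 0.05). Of the 25, 21 were higher in MV+ and 2 lower, beside 40.4% of all genes called higher and 38.9% called lower. The median log2 fold change (MV+ minus RAG) was 5.25 over the 25 members and 0.03 over all genes tested. It was 5.25 as well with Col3a1 and Col27a1, which were at 0 in RAG, set to their lower bounds. A log2 fold change above 5 was reached by 13 of the 25, or 52.0%, and by 7.07% of all genes tested. The CPM of the lines did not overlap for 24 of the 25, beside 80.6% of all genes. By class, 8 of 9 tested fibrillar genes were higher, as were all 6 type IV chains, 2 of 3 FACIT genes, the 1 transmembrane gene tested and 4 of the 6 others. The 2 lower genes, Col18a1 and Col6a3, belong to the last class.

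**Figure D2:**
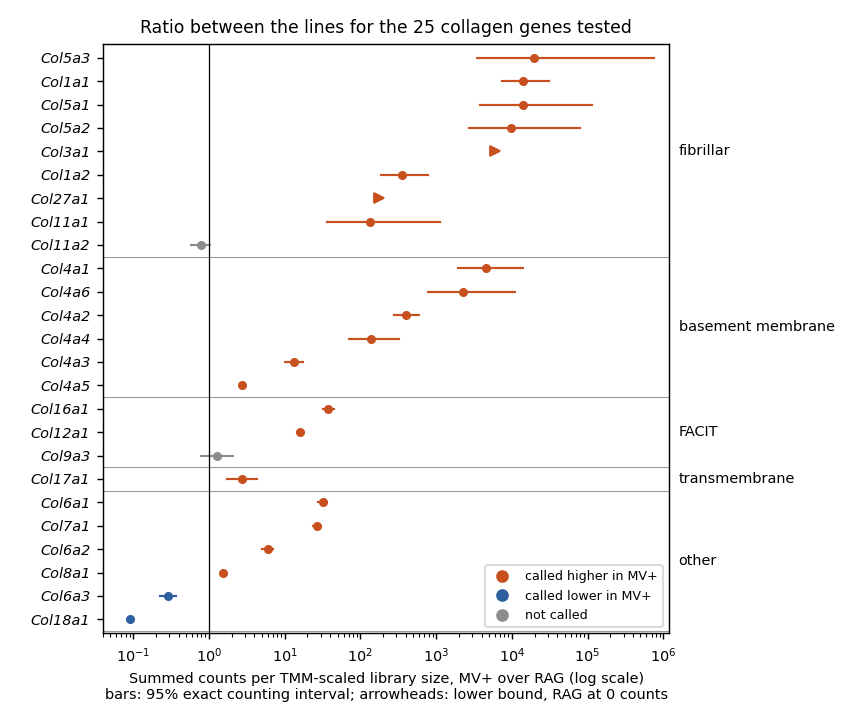
Ratio of summed counts per TMM-scaled library size, MV+ over RAG, for the 25 collagen genes tested, on a log axis by class; bars are 95% exact counting intervals and arrowheads are lower bounds for genes at 0 counts in RAG. Most fibrillar and type IV genes lie beyond 100-fold, and Col18a1 and Col6a3 are the genes called on the other side of 1.

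Type I collagen is the main fibril of skin, bone and tendon. Col1a1 (chr11:94797584-94813170, plus strand, mm9), which encodes its alpha-1 chain, was the most abundant collagen of MV+, at 244.3, 360.2 and 265.1 FPKM, and stood at 0.013, 0.015 and 0.025 FPKM in RAG. The RAG libraries held 9 Col1a1 counts in all against 81238 in MV+, a ratio of 14125 (95% exact counting interval 7440 to 30891). MV+ replicate 2 stood above the other MV+ libraries, and the gap between the lines was far larger than this spread (log2 fold change 13.72, adjusted p = 6.19e-11). Col1a2, the alpha-2 chain, had 6.59, 7.69 and 5.87 FPKM in MV+ and 0.017, 0.041 and 0 in RAG. Its ratio was 356 (187 to 779). The Col1a2 level thus lay well under that of its partner in every MV+ library, while RAG held 9 counts of each.

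Type III collagen, a homotrimer of elastic tissues, comes from Col3a1 (chr1:45368383-45406551, plus strand, mm9), which had 33.4, 39.9 and 30.4 FPKM in MV+ and 0 counts in every RAG library. It was at least 5944-fold higher in MV+, taken against a floor of 3 counts over the 3 RAG libraries. The type V chains, which set fibril diameter, had nearly equal levels. Col5a1 had 36.5, 36.4 and 33.9 FPKM in MV+ and 2 counts in RAG. Col5a2 had 30.5, 31.2 and 32.8 FPKM and 2 counts, and Col5a3 had 33.0, 33.6 and 35.7 FPKM and 1 count. Their ratios were 13891 (3845 to 114709), 9739 (2695 to 80423) and 19380.1 (3478 to 765534), so the wide counting intervals overlap. For several of these chains, with few counts in RAG, the fitted log2 fold change moved when 1 RAG library was left out. It went from 13.48 to 15.72 for Col5a1 without RAG replicate 3, and from 13.70 to 15.38 for Col5a3 without RAG replicate 2 or 13.04 without RAG replicate 3. Col5a2 went from 12.95 to 12.22 without RAG replicate 3. Col1a2 went from 8.41 to 9.47 without RAG replicate 2 and to 7.61 without RAG replicate 3. All of these stayed called.

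The remaining fibrillar genes were low in both lines. Col27a1, a fibrillar chain best known from cartilage, had 0.745, 0.665 and 0.800 FPKM in MV+ and 0 counts in RAG, a difference of at least 175-fold. Col11a1, which nucleates fibrils in cartilage, had 172 counts in MV+ and 2 in RAG, a ratio of 135 (36.7 to 1120). Its fitted log2 fold change of 6.79 became 9.19 without RAG replicate 1 and 6.07 without RAG replicate 3. Col11a2, the other type XI chain, was not called, with 1.22 ± 0.055 CPM (SD, n = 3) in MV+ against 1.51 ± 0.228 for RAG (log2 fold change −0.34 ± 0.21 SE, adjusted p = 0.154). Per length, Col11a1 lay above Col11a2 in every MV+ library, at 1.75 ± 0.423 times its FPKM, while RAG held 2 counts of Col11a1 and 154 of Col11a2. Col2a1, the cartilage collagen, had 9 and 3 counts and was not tested. The median log2 fold change of the 9 fibrillar genes tested was 12.95, or 12.54 with Col3a1 and Col27a1 at their bounds. The 8 called genes summed to 137774 counts in MV+ and 25 in RAG.

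The type IV genes lie in head-to-head pairs. On the mm9 build Col4a1 and Col4a2 are 2 bases apart on chromosome 8, Col4a4 and Col4a3 71 bases apart on chromosome 1, and Col4a6 and Col4a5 1342 bases apart on chromosome X. The chains of the first pair make the ubiquitous basement membrane network, and those of the others the networks of glomerulus, lens capsule and some other epithelia. Col4a1 had 38.3, 36.3 and 35.9 FPKM in MV+ and 0.004, 0.016 and 0.004 in RAG. Its neighbour Col4a2 had 22.0, 19.0 and 17.1 FPKM in MV+ and 0.032, 0.044 and 0.050 in RAG. The ratios were 4527 (1940 to 13945) and 396 (275 to 591), and these intervals, which cover counting error only, do not overlap. Without RAG replicate 2, which held 3 of the 5 RAG counts, the fitted log2 fold change of Col4a1 went from 12.03 to 12.81.

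Col4a3 and Col4a4 were lower in level. Col4a3 had 1.13, 1.07 and 0.818 FPKM in MV+ and 0.045, 0.070 and 0.081 in RAG (log2 fold change 3.74 ± 0.21 SE). Col4a4 had 1.49, 1.58 and 1.55 FPKM in MV+ and 0.004, 0.009 and 0.015 in RAG, a ratio of 140 (70.7 to 326). Every MV+ library lay above every RAG library for each of them. Per length, Col4a4 lay at 1.56 ± 0.297 times the FPKM of Col4a3 in MV+ and at 0.133 ± 0.0495 times in RAG (SD, n = 3), so the order of the pair turned between the lines, on 60 and 8 RAG counts.

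The pair on the X chromosome had different patterns in RAG. Col4a5, the chain altered in X-linked Alport syndrome of man, had 18.2, 20.6 and 21.0 FPKM in MV+ and 5.65, 6.04 and 7.32 in RAG. The libraries of the lines did not overlap (log2 fold change 1.47 ± 0.08 SE, adjusted p = 5.30e-11), and of the 6 type IV chains it was the one with the smallest fold. Col4a6 had 11.2, 10.8 and 11.3 FPKM in MV+ and 0.009, 0.005 and 0 in RAG. Its ratio was 2295 (785 to 11133), with fitted log2 fold changes of 10.96 over all libraries, 11.82 without RAG replicate 1 and 10.21 without RAG replicate 3. RAG thus had 4397 counts of Col4a5 beside 3 of Col4a6, and 105 counts of the 5 type IV chains other than Col4a5. Windows of 300 bases around the starts of this pair are printed because the neighbours had such unlike RAG levels, together with that of Col4a1. They run 5′ to 3′ on the strand of the gene, from 250 bases before its start to 50 after (RefSeq, GRCm38.p6). Capitals mark the motif CCAAT, the motif GGGCGG or the motif TATAAA on either strand (a match on the other strand is printed as its reverse complement), and no printed match overlaps another.
Col4a6 (chrX:141474027-141474326, minus strand): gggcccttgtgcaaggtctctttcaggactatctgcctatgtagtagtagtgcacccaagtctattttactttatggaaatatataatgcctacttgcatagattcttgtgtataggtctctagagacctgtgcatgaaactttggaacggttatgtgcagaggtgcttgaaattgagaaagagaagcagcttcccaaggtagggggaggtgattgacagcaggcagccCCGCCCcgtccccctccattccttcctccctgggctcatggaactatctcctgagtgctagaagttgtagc
Col4a5 (chrX:141475169-141475468, plus strand): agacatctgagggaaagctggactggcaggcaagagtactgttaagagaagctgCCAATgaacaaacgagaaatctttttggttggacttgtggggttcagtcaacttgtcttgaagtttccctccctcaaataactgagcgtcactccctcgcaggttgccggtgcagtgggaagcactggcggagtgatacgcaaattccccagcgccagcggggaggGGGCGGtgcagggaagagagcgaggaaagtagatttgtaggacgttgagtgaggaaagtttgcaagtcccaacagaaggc
Col4a1 (chr8:11312777-11313076, minus strand): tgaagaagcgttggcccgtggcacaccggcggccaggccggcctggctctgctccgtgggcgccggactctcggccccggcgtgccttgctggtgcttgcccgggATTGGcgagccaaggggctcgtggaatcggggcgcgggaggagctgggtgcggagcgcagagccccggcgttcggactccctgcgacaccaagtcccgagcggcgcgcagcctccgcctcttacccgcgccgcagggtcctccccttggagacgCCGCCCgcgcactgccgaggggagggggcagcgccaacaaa
In these windows Col4a6 had 1 GGGCGG and 3 CpG dinucleotides, Col4a5 had 1 CCAAT, 1 GGGCGG and 11 CpG, and Col4a1 had 1 CCAAT, 1 GGGCGG and 37 CpG. The matches are a description of the letters and not of binding.

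**Figure D3:**
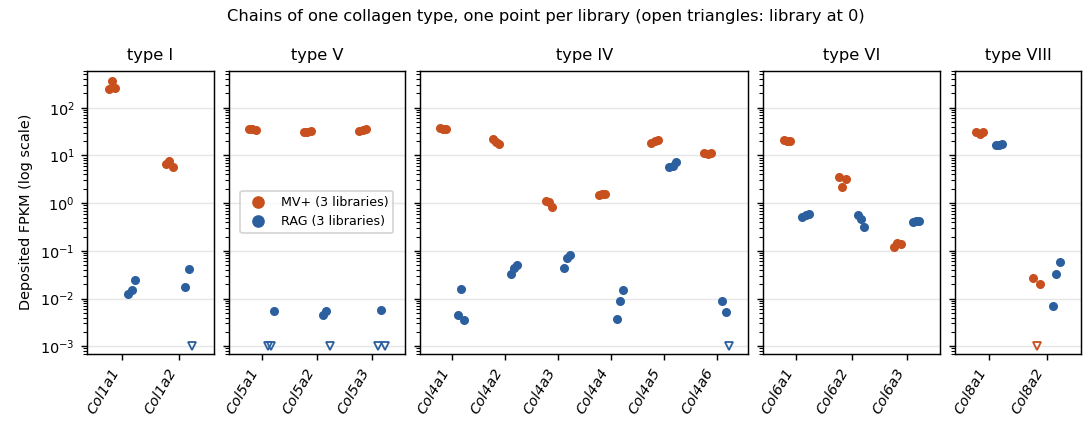
Deposited FPKM of the chains of collagen types I, V, IV, VI and VIII on a log axis, 1 point per library, with libraries at 0 as open triangles. In RAG, Col4a5 lies at 5.65 to 7.32 FPKM while the other type IV chains stay below 0.1, and of the 3 type VI chains plotted Col6a1 and Col6a2 are higher in MV+ and Col6a3 in RAG.

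Among the FACIT genes, Col16a1, a minor chain of skin and cartilage fibrils, had 14.1, 12.9 and 13.7 FPKM in MV+ and 0.387, 0.224 and 0.320 in RAG (log2 fold change 5.25 ± 0.14 SE). Col12a1, found on type I fibrils of tendon and other dense tissue, had 8.27, 8.33 and 6.62 FPKM in MV+ and 0.424, 0.449 and 0.425 in RAG (log2 fold change 3.99 ± 0.12 SE). Both were called and neither had overlapping libraries. Col9a3, a cartilage chain, had 33 and 40 counts and was not called (log2 fold change 0.38 ± 0.38 SE, adjusted p = 0.371). Its exons share 229 bases with Tcfl5, and without strand the reads of the 2 genes cannot be told apart there. Of the rest, Col20a1 had 33 counts (MV+) and 30 (RAG), Col14a1 had 15 and 21, Col22a1 had 1 and 15, and Col9a2, Col9a1 and Col19a1 had 6, 1 and 1 over all 6 libraries. None of these 6 was tested.

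Of the 4 transmembrane genes, Col17a1, a chain of the hemidesmosome, had 54 counts in MV+ and 31 in RAG. That is 0.839 ± 0.176 CPM against 0.299 ± 0.071 (SD over 3 libraries), a difference that was called (log2 fold change 1.44 ± 0.32 SE, adjusted p = 0.000742). Col23a1 had 19 and 10 counts, Col25a1 had 1 and 0, and Col13a1 had 0 in both lines, so these were not tested.

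Col18a1 was the collagen with the highest level in RAG. It lies at chr10:76514924-76629275 on the minus strand (mm9) and encodes a heparan sulfate proteoglycan of basement membranes whose C-terminal fragment is endostatin. It had 81.1, 82.1 and 87.0 FPKM in RAG and 8.08, 8.22 and 9.32 in MV+. As CPM these were 514.5 ± 8.93 for RAG and 46.4 ± 2.53 for MV+ (SD, n = 3), and the log2 fold change was −3.47 ± 0.07 SE (adjusted p = 1.03e-15). The ratio of MV+ to RAG was 0.0908 (95% exact counting interval 0.0875 to 0.0942). Col15a1, the other chain of its kind, had 8 counts in MV+ and 52 in RAG and was too low for the test. RefSeq lists windows at 2 Col18a1 starts on GRCm38.p6, and counts per gene do not tell which start was used. The proximal one had 0 CCAAT, 0 GGGCGG, 0 TATAAA and 6 CpG. The distal one had 3 GGGCGG, 1 CCAAT and 16 CpG. It is printed as that of the gene called lower with the most counts, with capitals as before.
Col18a1 (chr10:77166481-77166780, minus strand): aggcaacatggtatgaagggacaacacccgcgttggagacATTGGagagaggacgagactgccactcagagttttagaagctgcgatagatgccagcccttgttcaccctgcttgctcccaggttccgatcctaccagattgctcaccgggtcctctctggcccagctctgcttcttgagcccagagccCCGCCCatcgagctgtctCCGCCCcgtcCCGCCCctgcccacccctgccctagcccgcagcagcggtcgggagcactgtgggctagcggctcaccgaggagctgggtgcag

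Col8a1 (chr16:57624369-57754850, minus strand, mm9), a short-chain network collagen of Descemet's membrane and vessel wall, was high in both lines. It had 31.6, 28.0 and 30.5 FPKM in MV+ and 16.5, 16.8 and 17.7 in RAG, so the libraries did not overlap, and the log2 fold change was 0.64 ± 0.07 SE (adjusted p = 5.72e-07). Its partner Col8a2 had 4 counts in MV+ and 16 in RAG. Col8a1 ranked 2 by level in RAG and 7 in MV+, where its range overlapped that of Col5a2.

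The type VI genes, whose chains form beaded microfibrils, did not move as one. Col6a1 had 20.7, 20.5 and 19.7 FPKM in MV+ and 0.521, 0.552 and 0.606 in RAG (log2 fold change 5.00 ± 0.09 SE). Col6a2, 85.4 kb away on chromosome 10, had 3.60, 2.19 and 3.14 FPKM in MV+ and 0.556, 0.475 and 0.323 in RAG (log2 fold change 2.56 ± 0.26 SE). Col6a3, on chromosome 1, went the other way, with 0.122, 0.145 and 0.140 FPKM in MV+ and 0.412, 0.418 and 0.414 in RAG (log2 fold change −1.79 ± 0.16 SE, adjusted p = 5.82e-08). The libraries did not overlap for any of the 3. Col6a4 to Col6a6, which can take the place of Col6a3 in the trimer, summed to 8 counts in MV+ and 2 in RAG.

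Col7a1, which makes the anchoring fibrils under stratified epithelia, had 9.38, 8.41 and 10.9 FPKM in MV+ and 0.238, 0.277 and 0.411 in RAG (log2 fold change 4.75 ± 0.15 SE). Its exons share 36 bases with Mir711. The others of this class, Col10a1 with 20 and 34 counts and Col28a1 with 3 and 0, were not tested.

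The make-up of the collagen counts differed accordingly. In MV+ fibrillar genes took 66.8% ± 3.42 of collagen counts, type IV 17.2% ± 1.58, the others 11.2% ± 1.52 and FACIT genes 4.72% ± 0.469 (SD, n = 3). In RAG the others took 91.8% ± 0.611, type IV 6.62% ± 0.615 and FACIT genes 1.21% ± 0.0564. Col1a1 alone took 35.2, 44.6 and 37.7% in the MV+ libraries, and Col18a1 76.7, 76.3 and 75.6% in RAG against 1.44% ± 0.190 in MV+. Col18a1, Col8a1 and Col4a5 together made up between 96.3 and 96.4% of the collagen counts of each RAG library and 9.64% of those of MV+. Of the MV+ libraries, replicate 2 had the largest Col1a1 share. These shares are of counts, which also follow transcript length. By FPKM, a share per length, Col1a1 took 46.6% ± 5.05 in MV+ and Col18a1 75.7% ± 0.457 in RAG.

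**Figure D4:**
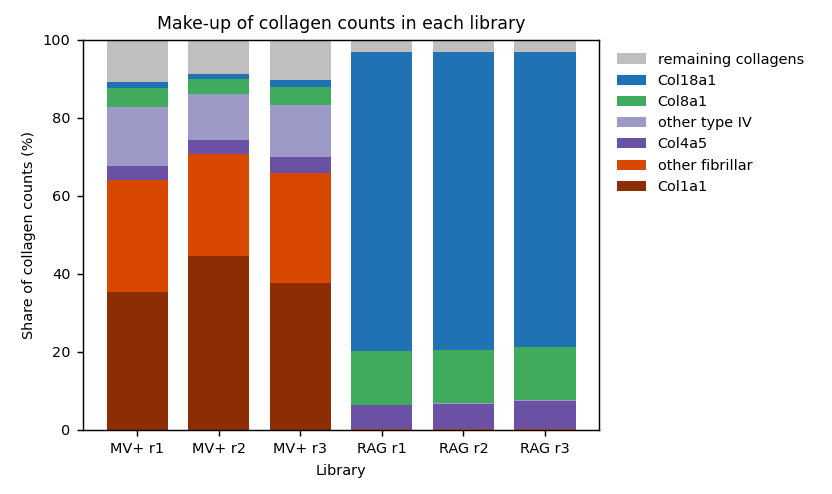
Share of collagen counts by gene or class in each of the 6 libraries, as stacked bars that add up to 100%; r1 to r3 are the replicates. Col1a1 (dark brown) takes 35.2 to 44.6% in MV+ and Col18a1 (blue) 75.6 to 76.7% in RAG.

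Levels of partner chains were compared per length, as ratios of FPKM within a library. Col1a1 over Col1a2 was 37.1, 46.8 and 45.2 in MV+, beside a usual trimer of 2 alpha-1 chains and 1 alpha-2. Col4a1 over Col4a2 was 1.74, 1.91 and 2.10, Col4a5 over Col4a6 was 1.79 ± 0.151 and Col4a4 over Col4a3 was 1.56 ± 0.297 (SD, n = 3). Over the type V chains the ratios were near 1, at 1.13 ± 0.0884 for Col5a1 and 1.08 ± 0.00618 for Col5a3, each over Col5a2. For type VI the ratios differed by line. Col6a1 over Col6a3 was 151 ± 16.5 in MV+ and 1.35 ± 0.102 in RAG, and Col6a1 over Col6a2 was 7.12 ± 1.95 and 1.33 ± 0.490. RAG thus had like levels of the 3 chains and MV+ did not. Col18a1 over Col8a1 was 0.285 ± 0.0264 in MV+ and 4.90 ± 0.0219 in RAG.

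In MV+ the order of levels began with Col1a1, whose libraries all lay above those of any other collagen. Col4a1, Col5a1, Col3a1 and Col5a3 followed, at means of 36.8, 35.6, 34.6 and 34.1 FPKM, and each overlapped the next. Col5a2 and Col8a1 overlapped at 31.5 and 30.0, and Col6a1, Col4a5 and Col4a2 each overlapped the next at 20.3, 19.9 and 19.4. In RAG the first 3, Col18a1, Col8a1 and Col4a5, were clear of each other and of the ones that followed. Col6a1, Col6a2 and Col12a1 came next at means of 0.560, 0.451 and 0.433 FPKM, each overlapping its neighbour in that order.

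Start windows were listed for 35 of the members, as 38 windows. GGGCGG was found in 60.5% of them and in 35.7% of 32851 windows of all genes, CCAAT in 34.2% and 37.4%, and TATAAA in 13.2% and 13.6%. The median number of CpG was 11.5 for collagens and 7 for all genes, and the median share of G and C was 59.8% and 52.7%. No entry was listed for Col1a1, Col2a1, Col4a3, Col5a2, Col9a3, Col12a1, Col14a1 and Col22a1. Col3a1, at 0 counts in RAG, and Col1a2, at 9, are printed side by side because both were higher in MV+ while their windows differ in composition. Their MV+ levels were unlike, at means of 34.6 and 6.72 FPKM.
Col3a1 (chr1:45311288-45311587, plus strand): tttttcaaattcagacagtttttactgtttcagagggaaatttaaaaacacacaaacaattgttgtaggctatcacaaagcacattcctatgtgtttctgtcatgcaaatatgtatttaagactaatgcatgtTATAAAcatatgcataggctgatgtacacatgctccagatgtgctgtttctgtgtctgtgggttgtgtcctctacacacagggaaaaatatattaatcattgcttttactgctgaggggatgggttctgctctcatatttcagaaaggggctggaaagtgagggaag
Col1a2 (chr6:4505368-4505667, plus strand): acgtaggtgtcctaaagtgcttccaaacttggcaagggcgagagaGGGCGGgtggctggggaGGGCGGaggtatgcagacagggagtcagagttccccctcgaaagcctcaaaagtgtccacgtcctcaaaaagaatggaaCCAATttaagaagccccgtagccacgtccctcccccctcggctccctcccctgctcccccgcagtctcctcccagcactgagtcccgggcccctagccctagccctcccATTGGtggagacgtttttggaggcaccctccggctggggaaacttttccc
Col3a1 had 1 TATAAA and 0 CpG with 37.7% G and C, and Col1a2 had 2 CCAAT, 2 GGGCGG and 13 CpG with 61.0% G and C. Their genes lie on chromosomes 1 and 6, and Col3a1 lies tail to tail with Col5a2, 24.6 kb away on mm9.

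The 18 members that were not tested had at most 26 counts in any library. They are Col2a1 and Col24a1 of the fibrillar class, 6 FACIT, 3 transmembrane and 7 other genes. Without a filter on low counts Col23a1 and Col6a4 were also called higher, with adjusted p = 0.0276 and 0.00315. Col15a1 and Col22a1 were then also called lower, at log2 fold changes of −2.03 (adjusted p = 0.000376) and −2.97 (adjusted p = 0.0186). For the others a difference was not detectable at this depth.

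Genes that act on collagens were read from the same fit. Of 18 modification and folding genes tested, 12 were higher in MV+, 3 were lower and 3 were not called, with a median log2 fold change of 0.81 beside 0.03 over all genes. That is 83.3% called, near the 79.3% of all genes. Plod2, which hydroxylates lysines of the telopeptides, had 228.6 CPM in MV+ and 1 count in RAG, a ratio of 22694 (4073 to 896440.4). Leprel4, the older symbol of the prolyl hydroxylase family member P3h4, had 7756 counts in MV+ and 1 in RAG, a ratio of 12137 (2178 to 479432). Without RAG replicate 1 the log2 fold change of Plod2 went from 13.93 to 15.57 and that of Leprel4 from 13.02 to 14.66, and without RAG replicate 3 they were 13.28 and 12.37. Creb3l1, a transcription factor of collagen-secreting cells, was at 0 in RAG and at least 396-fold higher in MV+. Crtap and Lepre1 (P3h1), partners in proline 3-hydroxylation, were lower in MV+, at −0.40 ± 0.07 and −0.24 ± 0.07 SE.

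All 11 secretion and cleavage genes tested were called, 8 higher and 3 lower, and their median was 1.24 (all genes: 79.3% called, median 0.03). Adamts2, the N-propeptidase of fibrillar procollagens, was at 0 in RAG and at least 954-fold higher in MV+. Adamts14, a related propeptidase, had 1.24 ± 0.12 SE, and Sec24d, a coat protein needed for procollagen export, had 1.52 ± 0.07. Ctage5, of the export machinery, was lower at −1.97 ± 0.07, and Furin, a proprotein convertase, at −0.77 ± 0.08. Sec23a was lower at −0.22 ± 0.08 (adjusted p = 0.0229), and its call was lost without MV+ replicate 3 (adjusted p = 0.122) or RAG replicate 2 (adjusted p = 0.0752).

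Of the 4 crosslinking enzymes tested, 2 were higher, 1 was lower and 1 was not called, with a median of 4.63. That is 75.0% called, near the share of all genes. Loxl2 had a ratio of 1103 (753 to 1689) and Loxl1 a ratio of 583 (395 to 901), from 26 and 25 counts in RAG. Loxl4 had a log2 fold change of −2.09 ± 0.08 SE. Loxl3, the enzyme not called, had 0.09 ± 0.08 SE. The median fell between Loxl3 and Loxl1, at 9.17, and no enzyme lay near it. Lox itself was not tested, at 7 and 1 counts. Of 6 receptors tested, 3 were higher, 1 lower and 2 not called, with a median of 0.38. The 66.7% called lay below the 79.3% of all genes. Mrc2, an endocytic collagen receptor, had 4.68 ± 0.18 SE, the integrin chain Itgb1 0.89 ± 0.07 and the discoidin domain receptor Ddr2 0.35 ± 0.08, while Itga1, a collagen-binding integrin chain, had −2.61 ± 0.12. The Ddr2 call was lost with MV+ replicate 3 as the only MV+ library (adjusted p = 0.206).

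All 10 collagen-binding matrix genes tested were called, 9 higher and only Tnxb lower, and their median was 5.67, or 4.31 with Bgn and Prelp, at 0 in RAG, set to their bounds. Of all genes 79.3% were called and 40.4% were higher. Fn1, fibronectin, had 53884 counts in MV+ and 7 in RAG, and Nid1, nidogen, which links the laminin and type IV networks, had 22407 and 3. Tgfbi, a matrix protein that binds collagens and integrins, had 1167 and 1. The ratios were 12045 (5846 to 29961) for Fn1, 11688 (3999 to 56678) for Nid1 and 1826 (327 to 72189) for Tgfbi. Without RAG replicate 2 the fitted log2 fold change went from 13.49 to 14.21 for Fn1 and from 13.31 to 14.24 for Nid1. That of Tgfbi went from 10.28 to 11.77 without RAG replicate 3. Tnxb had −0.98 ± 0.26 SE from 39 and 120 counts.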

How the data were processed

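Gene expression was measured in MV+ and RAG cells, 3 libraries each, from ribosomal RNA-depleted RNA read as single 50 nt reads with a kit not stated to keep strand. Per the labels, the authors placed reads on mm9 by TopHat2 2 and processed them with SAMtools 1.6. The deposited counts of RefSeq genes came from featureCounts 1.5.0-p3, without regard to strand. From these counts, exon lengths and library totals the authors derived the deposited FPKM, which a recomputation matched to a relative difference of at most 5.8e-14. The study's line with high Pax6 was not analysed here.

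The collagens and the lists below were chosen with earlier results of these data known. Counts were tested with edgeR 4.0.16 (R 4.3.3; filterByExpr, TMM, robust quasi-likelihood F test, two-sided, Benjamini-Hochberg over 12965 genes, called under 0.05). SE is the log2 fold change over the root of F. It can understate counting error where RAG held few counts and MV+ many. For such genes the ratio of summed counts was given with its 95% exact conditional interval, in places beside the fitted value. A gene at 0 in a line was set against 3 counts over that line, and 3 counts in 1 library are 0.0697 to 0.167 CPM. These intervals cover counting error only. Replicates of a line differed by more than sampling noise (chi-square per degree of freedom 8.87 to 92.7). Values per library were given for members with at least 10 CPM in either line or called lower with at least 1 CPM. Those of their partner chains were given too. Up to 3 called genes per list and direction with at least 10 CPM were named. Lox, Loxl3, Tnxb, Bgn and Prelp, single marker genes and the library values of Col27a1 were chosen after their values were seen. The lists were collagen modification and folding, procollagen secretion and cleavage, crosslinking, receptors, collagen-binding matrix proteins and 5 marker lists. Deviations of same-numbered libraries from their line means correlated at 0.218, 0.143 and 0.134, which was taken as pairing, although the labels name no shared batch. The values reported come from the fit without pairing, and a replicate block was run as an alternative. Alternatives were other size factors, DESeq2 1.42.0, other filters, leaving out Rn45s, limma 3.58.1 on log2(FPKM + 1) or log2(FPKM + 0.1), a replicate block and leaving out libraries. The fit was first tested on simulated data with known small changes in genes with many counts. That test does not cover the large folds of genes with few RAG counts.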

Additional observations from a re-analysis of the deposited data

How the results depend on the processing

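All 416 alternative values of the 25 tested collagens over 17 settings kept their direction and their side of the threshold, and 0 values reversed. With the replicate block, 21 collagens were higher and 2 lower, and no call of a collagen or a pathway count changed. Without a filter on low counts, 4 collagens were lower and 5 receptors higher, since more genes were tested. With limma on log2(FPKM + 1), 5 receptors were higher, and with log2(FPKM + 0.1) 5 receptors and 4 crosslinking genes. With limma and an FPKM minimum, which tests fewer genes, 1 collagen, 1 modification gene and 0 matrix genes were lower. With MV+ replicate 3 as the only MV+ library, assumed to vary like RAG libraries, 0 matrix genes were lower. Limma on FPKM moved the median of all genes by 0.17 to 0.18 on the log2 scale and put 61.0% of calls higher in MV+ without a filter and 59.2% with the FPKM minimum, against 50.9% with edgeR. Without Rn45s in the total, the collagen share was 0.405% in MV+ and 0.0761% in RAG.

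Leaving out 1 library in turn gave 21 to 22 collagens higher and 2 to 3 lower. It gave 12 modification genes higher and 3 lower, 7 to 8 secretion genes higher and 2 to 3 lower, 2 crosslinking genes higher and 1 lower, 3 to 4 receptors higher and 1 lower, and 9 matrix genes higher and 1 lower. The collagen share was then 0.328 to 0.355% in MV+ and 0.0618 to 0.0645% in RAG. Sec23a also lost its call with upper quartile factors (adjusted p = 0.122) and limma, and Lepre1 with limma and with MV+ replicate 3 alone (adjusted p = 0.0620). The cause was not tested. Depth limits the genes with few RAG counts, whose folds are known at best to their counting intervals. These leave out the spread between flasks.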
